A study of Mus musculus with 2 samples.

Results

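The Schlafen genes described here are Slfn1, Slfn2, Slfn3, Slfn4, Slfn5, Slfn8 and Slfn9, taken by symbol as 7 of the 55536 genes in the tables. They were measured by RNA-seq of polyadenylated RNA in 2 libraries of bone marrow-derived macrophages (BMDM) from C57BL/6J mice, treated for 30 min with 100 ng/ml of a bacterial ligand. The free-text label names the ligand as lipid A, whereas the treatment fields name lipoprotein A, so it is called the ligand below. The libraries are biological replicates 1 and 2 of 1 group, with separate biosample records and the same donor record. The labels give no sex or age. There was no untreated sample, so the levels cannot show whether any Schlafen gene had responded to the ligand.

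Schlafen proteins share an N-terminal core domain related to RNA-cleaving enzymes and are studied mostly in lymphocytes, macrophages and virus-infected cells. Short members consist of little more than the core, intermediate members add a linker, and long members carry a helicase-like C-terminal part and, in several cases, act in the nucleus. Many mouse and human members are interferon-induced, and several bind or cut transfer RNA. The name, German for sleep, refers to quiescence. The first member was described as slowing thymocyte growth, and mice with a defective Slfn2 have few T cells and inflammatory monocytes, with T cells that do not hold a resting state.

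The 7 genes lie together on chromosome 11, within 263.8 kb at chr11:82951349-83215154 of mm10. Slfn5 (chr11:82951349-82964840), Slfn2 (chr11:83065112-83070678), Slfn1 (chr11:83116849-83122670), Slfn4 (chr11:83175186-83190216) and Slfn3 (chr11:83191330-83215154) are on the plus strand. Slfn9 (chr11:82978390-82991830) and Slfn8 (chr11:83002158-83020810) are on the minus strand. All 7 are annotated as protein-coding. By the coding sequence of the leading annotated transcript, the short members encode 337 (Slfn1) and 378 (Slfn2) codons, the intermediate members 517 (Slfn3) and 602 (Slfn4), and the long members 884 (Slfn5), 910 (Slfn8) and 910 (Slfn9).

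The sequences before the start sites were searched for short sets of letters. Windows of 250 bases upstream of the start site were taken from RefSeq for build GRCm38.p6, where all 7 members matched by symbol. The core letters of the interferon-stimulated response element, GAAA and GAAA with 2 bases of any kind between, were searched on both strands, since this element is bound by transcription factors that interferon activates. They occurred in the windows of the 3 long members and in none of the other 4, beside 2.98% of 32851 RefSeq promoters of the same length. The 3 windows are shown whole, 5′ to 3′ on the strand of the gene, with the matching letters in capitals. They come from chr11:82951852-82952101 (plus strand), chr11:83020811-83021060 (minus strand) and chr11:82991831-82992080 (minus strand).
Slfn5: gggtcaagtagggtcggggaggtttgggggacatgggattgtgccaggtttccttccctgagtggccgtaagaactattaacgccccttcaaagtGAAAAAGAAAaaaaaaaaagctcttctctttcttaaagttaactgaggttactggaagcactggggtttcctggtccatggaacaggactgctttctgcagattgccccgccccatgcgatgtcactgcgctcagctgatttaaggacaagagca
Slfn8: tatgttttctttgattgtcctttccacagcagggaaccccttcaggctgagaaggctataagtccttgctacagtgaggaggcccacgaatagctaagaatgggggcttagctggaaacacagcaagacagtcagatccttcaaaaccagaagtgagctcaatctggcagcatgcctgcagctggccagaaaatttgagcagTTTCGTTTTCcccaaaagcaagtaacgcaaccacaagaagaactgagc
Slfn9: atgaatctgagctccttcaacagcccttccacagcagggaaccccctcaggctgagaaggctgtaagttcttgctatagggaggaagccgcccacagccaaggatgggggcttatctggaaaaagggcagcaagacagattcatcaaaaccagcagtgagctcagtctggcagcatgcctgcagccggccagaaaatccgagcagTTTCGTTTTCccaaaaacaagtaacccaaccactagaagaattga
In Slfn5 the match was on the strand of the gene, 155 to 146 bases before the start. In Slfn8 and Slfn9 it was on the opposite strand, 48 to 39 and 45 to 36 bases before the start, with the same 10 letters in both. The windows of Slfn8 and Slfn9 were 85.1% identical over 242 aligned bases, but that of Slfn5 was only 59.1% identical to Slfn8 and 63.5% to Slfn9. Among the short and intermediate members this identity was 52.8% to 70.2%, and between them and the long members 56.1% to 68.3%. Identity of the windows thus did not follow the length of the members.

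The short and intermediate members shared other letters. ACTTCCTGG, a stretch picked after the sequences had been read, occurred once before each of Slfn1, Slfn2, Slfn3 and Slfn4, on the strand of the gene, and in none of the 3 long members. It was in 0.7% of the 32851 promoters when both strands were searched. No member's window held both this stretch and the interferon element core. The 60 bases around each match are shown with the shared letters in capitals, all from the plus strand, at chr11:83116720-83116779, chr11:83065031-83065090, chr11:83191262-83191321 and chr11:83175087-83175146.
Slfn1: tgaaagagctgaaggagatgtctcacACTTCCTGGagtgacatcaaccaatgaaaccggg
Slfn2: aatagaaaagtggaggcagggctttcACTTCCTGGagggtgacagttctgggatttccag
Slfn3: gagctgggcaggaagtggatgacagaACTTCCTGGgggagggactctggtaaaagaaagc
Slfn4: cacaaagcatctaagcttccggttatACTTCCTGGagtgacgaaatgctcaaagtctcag
The first base of the stretch was 74 (Slfn1), 55 (Slfn2), 42 (Slfn3) and 73 (Slfn4) bases before the RefSeq start. The RefSeq start of Slfn1 is 29 bases from that of its annotated transcript, and the other 6 coincide with the start of the leading transcript. The longest run common to any pair of these 4 windows was in Slfn1 and Slfn4, which shared the 15 bases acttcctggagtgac. Other letters searched on both strands were those of the gamma-activated site, TTCNNNGAA, in 0 of 7 windows and 7.02% of promoters, and of an NF-kB site, GGG and TTTCC with 2 bases of any kind between, in 0 of 7 windows and 1.41% of promoters. TATAAA was found before 1 of the 7 genes, Slfn4, and in 12.4% of promoters. A match is a description of the letters in this window and shows no binding.

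Of the 7 members, 6 reached 1 TPM in each library, and Slfn2 exceeded Slfn4 by 3859 times in replicate 1 and 895 times in replicate 2. Those ratios rest on the few counts of Slfn4 and were 697 and 312 in a second deposited table. TPM is the relative abundance of a gene's transcripts per length, scaled to a fixed total, so it can be compared between genes. Across the tables, 19.2% of all 55536 genes and 45.3% of the 22028 protein-coding genes did so. Means are given ± SD with n = 2 libraries, and paired values are those of replicate 1 and then replicate 2.

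**Figure D1:**
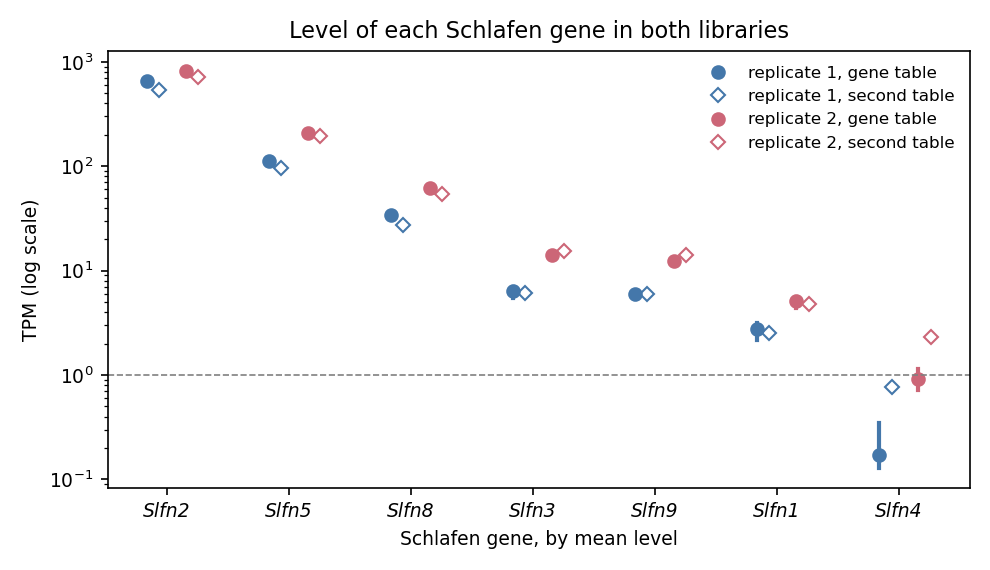
Level of each Schlafen gene in TPM (log axis) in replicates 1 and 2, with the deposited credibility interval of the posterior mean TPM as a bar. Slfn2 is at 656 and 823 TPM and Slfn4 at 0.17 and 0.92 TPM, and all 7 genes are higher in replicate 2.

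Of the short members, Slfn2, the one needed for resting T cells and monocytes, was by far the most abundant Schlafen transcript. It was at 656 TPM in replicate 1 and 823 TPM in replicate 2, a mean of 740 ± 118 TPM that ranked 143 among protein-coding genes. Those values rest on 22937 and 40132 expected counts, which are estimated reads. Slfn1, the founding member and the growth-slowing gene of thymocytes, was at 2.75 and 5.10 TPM (3.92 ± 1.66 TPM) from 110 and 285 counts. Their coding sequences were 71.4% identical over 999 aligned bases.

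Both intermediate members were low. Slfn3, a gene also described in T cells and in intestinal differentiation, was at 6.34 and 14.1 TPM (10.2 ± 5.50 TPM) from 257 and 792 counts. Slfn4, a myeloid member known to be induced by toll-like receptor ligands and interferon, was the lowest, at 0.17 and 0.92 TPM (0.545 ± 0.530 TPM). Only 16 and 100 counts lay behind the Slfn4 values. Slfn4 was the 1 member that stayed below 1 TPM in both libraries.

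The long members were ordered the same way in both libraries. Slfn5, a nuclear and interferon-induced member, was at 113 and 208 TPM (161 ± 67.8 TPM, rank 745) from 14549 and 37669 counts. Slfn8 was at 34.3 and 61.7 TPM (48.0 ± 19.4 TPM, rank 2349) from 2746 and 7037 counts. Slfn9, the near copy of Slfn8, was at 5.92 and 12.5 TPM (9.20 ± 4.63 TPM, rank 6822) from 759 and 2300 counts. Slfn8 exceeded Slfn9 by 5.79 and 4.95 times in TPM, and Slfn5 exceeded Slfn8 by 3.29 and 3.38 times.

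From highest to lowest mean TPM the order was Slfn2, Slfn5, Slfn8, Slfn3, Slfn9, Slfn1 and Slfn4, and it was the same in each library. The means of Slfn3 and Slfn9 differed by less than the SD of either. Those of Slfn9 and Slfn1 were 9.20 ± 4.63 and 3.92 ± 1.66 TPM. The range of Slfn9 (5.92 to 12.5 TPM) did not overlap that of Slfn1 (2.75 to 5.10 TPM), and no other neighbours in this order overlapped apart from Slfn3 and Slfn9.

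The summed level of the 7 genes was 818 and 1126 TPM (972 ± 218 TPM). Slfn2 made up 80.2% of it in replicate 1 and 73.1% in replicate 2, and Slfn5 a further 13.8% and 18.5%. Together they took 94.0% and 91.6%. As a share of expected counts, which are not divided by length, Slfn2 made up 55.4% and 45.4% and Slfn5 made up 35.2% and 42.7%. The 7 genes took 0.109% of all counts in replicate 1 (95% Wilson interval 0.108% to 0.111%) and 0.170% in replicate 2 (0.169% to 0.171%), intervals that cover counting error only.

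All 7 Schlafen genes were higher in replicate 2 than in replicate 1. In counts scaled between the libraries by TMM, a factor that centres most genes, the difference was smallest for Slfn2 and largest for Slfn4. The question here is only how far these 2 libraries of the same group differ. An exact binomial test per gene compared their counts, two-sided, with Benjamini-Hochberg adjustment over the 14112 genes with 10 or more counts, and it measures counting error, not biological spread. By this test 7 of 7 members were higher in replicate 2 and 0 of 7 lower, beside 29.4% of all tested genes higher and 30.1% lower at an adjusted p below 0.05. Of these, 3 (Slfn4, Slfn3 and Slfn9) were also more than 2-fold higher, beside 7.23% of all tested genes. In the second deposited table Slfn4 was the 1 member past 2-fold, with Slfn3 and Slfn9 at log2 ratios of 0.99 and 0.92. The median log2 ratio of the members was 0.77, beside 0.0033 over all genes tested.

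Slfn2 was 1.16 times higher in replicate 2 (95% interval 1.14 to 1.17, exact binomial test, adjusted p = 8.01e-68). The next 3 members had close ratios, with Slfn8 at 1.69 (1.62 to 1.77), Slfn5 at 1.71 (1.68 to 1.74) and Slfn1 at 1.71 (1.37 to 2.15). Slfn9 was at 2.00 (1.84 to 2.18) and Slfn3 at 2.04 (1.77 to 2.35), with intervals that include 2-fold. Slfn4 was 4.13 times higher, with a wide interval of 2.42 to 7.50 from its few counts. On the log2 scale that is 2.05, and the second deposited table gave 1.36. The interval of Slfn2 overlapped with none of the other 6. Among the members, the largest adjusted p in the exact binomial test was 2.90e-06, for Slfn1.

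**Figure D2:**
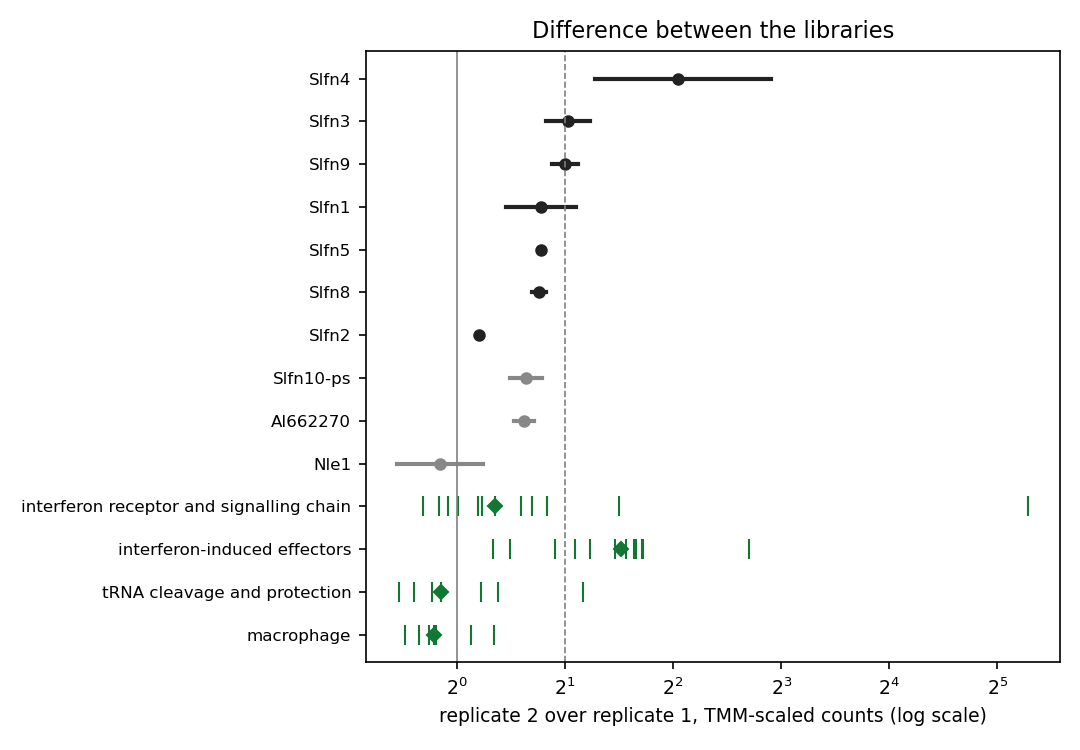
Ratio of replicate 2 to replicate 1 in TMM-scaled counts (log axis, with the ratio of 1 as a solid and of 2 as a dashed line) for the Schlafen genes in black and for nearby genes in grey, with 95% exact intervals, and for each gene of 4 context lists as green ticks with the median as a diamond. The 7 Schlafen genes lie between 1.16 and 4.13, all to the right of 1.

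Ranked among all tested genes, 65.6% had a lower ratio than Slfn2, 86.2% to 90.3% a lower ratio than Slfn1, Slfn3, Slfn5, Slfn8 and Slfn9, and 96.4% a lower ratio than Slfn4. The deposited credibility intervals of TPM, whose level is not stated, did not overlap between the libraries for any of the 7 members. That was so, in the direction of replicate 2, for 29.4% of the 11026 genes whose mean reached 1 TPM. Slfn4, at a mean of 0.545 TPM, was not among those genes. The interval of Slfn2 was 625 to 641 TPM in replicate 1 and 792 to 808 TPM in replicate 2. These intervals belong to the posterior mean TPM, which is lower than the TPM used above for every member but Slfn4. For Slfn4 the posterior mean was 0.23 and 0.92 TPM, beside a TPM of 0.17 and 0.92. Ratios within the family moved too, since the Slfn2 to Slfn5 ratio in TPM was 5.83 in replicate 1 and 3.95 in replicate 2.

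The 3 members with the interferon element core in the promoter window had ratios of 1.69 to 2.00. The 4 members with ACTTCCTGG had ratios of 1.16 to 4.13. Whether the ratios relate to these letters was not tested.

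Other genes of the interferon pathway differed between the libraries as well. Of 12 interferon-induced effectors, 12 reached 1 TPM in each library, and by the exact binomial test 12 were higher in replicate 2 and 0 lower, 9 of them by more than 2-fold, beside 29.4%, 30.1% and 7.23% of all tested genes. Their median log2 ratio was 1.52. The most abundant were Ifi204, a sensor of nucleic acid, at 240 and 368 TPM, Ifit3 at 153 and 390 TPM and Ifit2 at 117 and 372 TPM, both RNA-binding antiviral proteins, and Cxcl10, a chemokine for T cells, at 52.8 and 352 TPM. The shift in Slfn2 (0.21 in log2 ratio) was below the lowest of these 12 (0.34, Oasl1), and that of Slfn4 (2.05) was below the highest (2.70, Cxcl10).

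The receptor and signalling chain of type I interferon was more mixed. Of its 13 genes, 9 were higher in replicate 2, 3 were lower and 2 were more than 2-fold higher, beside 29.4%, 30.1% and 7.23% of all tested genes. Their median log2 ratio was 0.35. The transcription factor Irf1 was at 150 and 464 TPM and Irf7, an amplifier of interferon transcription, at 112 and 207 TPM. The receptor chain Ifnar2 was at 171 and 144 TPM. Ifnb1, which encodes interferon beta, had 1 count in replicate 1 and 59 in replicate 2, and the feedback inhibitor Socs1 was below 1 TPM in both libraries, at 0.32 and 0.61 TPM.

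Genes that cut or protect transfer RNA, a process in which Slfn2 has been placed, were all detected. Of 7 genes, 3 were higher in replicate 2 and 4 lower, beside 29.4% and 30.1% of all tested genes, and the median log2 ratio was -0.14. The ribonuclease inhibitor Rnh1 was at 223 and 202 TPM, the tRNA methyltransferase Nsun2 at 34.0 and 28.2 TPM, and the ribonuclease gene Ang at 11.6 and 31.4 TPM.

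The labelled cell type was checked on its markers, and 7 of 7 macrophage genes were at 76.1 TPM or above in each library. By the exact binomial test 2 of these 7 were higher and 5 lower in replicate 2, beside 29.4% and 30.1% of all tested genes. Few markers of other cells reached 1 TPM in both libraries. They were 1 of 7 T cell genes (Cd4 at 111 and 82.2 TPM, with Cd8a at 0), 1 of 5 B cell genes (Cd79b), 0 of 5 NK cell genes, 1 of 5 dendritic cell genes, 0 of 4 stromal genes and 0 of 4 erythroid genes. All 4 monocyte genes did, with summed levels of 34.9 and 31.8 TPM. Of 7 neutrophil genes 2 did, S100a9 and S100a8, and the list summed to 309 TPM in replicate 1 and 55.6 TPM in replicate 2. Of its 5 tested genes 4 were more than 2-fold lower in replicate 2, beside 3.95% of all tested genes. Genes of ribosomal RNA, mitochondrial ones included, took 11.2% of the counts of replicate 1 and 5.33% of those of replicate 2. The neutrophil genes, the ribosomal share and the interferon-induced genes moved between the same libraries as the Schlafen genes, and their part in the Schlafen ratios was not tested. In such bulk libraries a change in the number of expressing cells and a change in RNA per cell cannot be told apart.

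The total depth was 37784941 expected counts over genes in replicate 1 and 51904470 in replicate 2. TMM left the median log2 ratio of all genes near 0, and 49.4% of the genes called different were then higher in replicate 2. Scaling by total counts moved that median to 0.14 and the share to 68.6%, with 7 of 7 members higher under both.

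In the order of their positions, the members had mean levels of 161 (Slfn5), 9.20 (Slfn9), 48.0 (Slfn8), 740 (Slfn2), 3.92 (Slfn1), 0.545 (Slfn4) and 10.2 TPM (Slfn3). The 3 members beyond Slfn2 were thus all low. The pseudogene Slfn10-ps, between Slfn8 and Slfn2, was at 6.36 and 10.6 TPM, with a ratio of 1.56 in scaled counts (1.41 to 1.73). AI662270, a processed transcript just beyond Slfn3, was at 55.5 and 95.6 TPM with a ratio of 1.54 (1.45 to 1.64, exact binomial test, adjusted p = 6.49e-43). Gm11427, a pseudogene that overlaps it and resembles Slfn3, was at 6.01 and 9.12 TPM with a ratio of 1.27 (1.05 to 1.54, exact binomial test, adjusted p = 0.0197).

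Unc45b, a myosin chaperone gene that ends before Slfn5 and overlaps its antisense gene, had 3 and 2 counts, too few for the test. Nle1, a ribosome assembly factor and the next protein-coding gene on that side, was at 2.50 and 3.17 TPM with a ratio of 0.897 in scaled counts (0.683 to 1.18, exact binomial test, adjusted p = 0.538). Nle1 missed the threshold, which does not show that it was equal between the libraries.

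**Figure D3:**
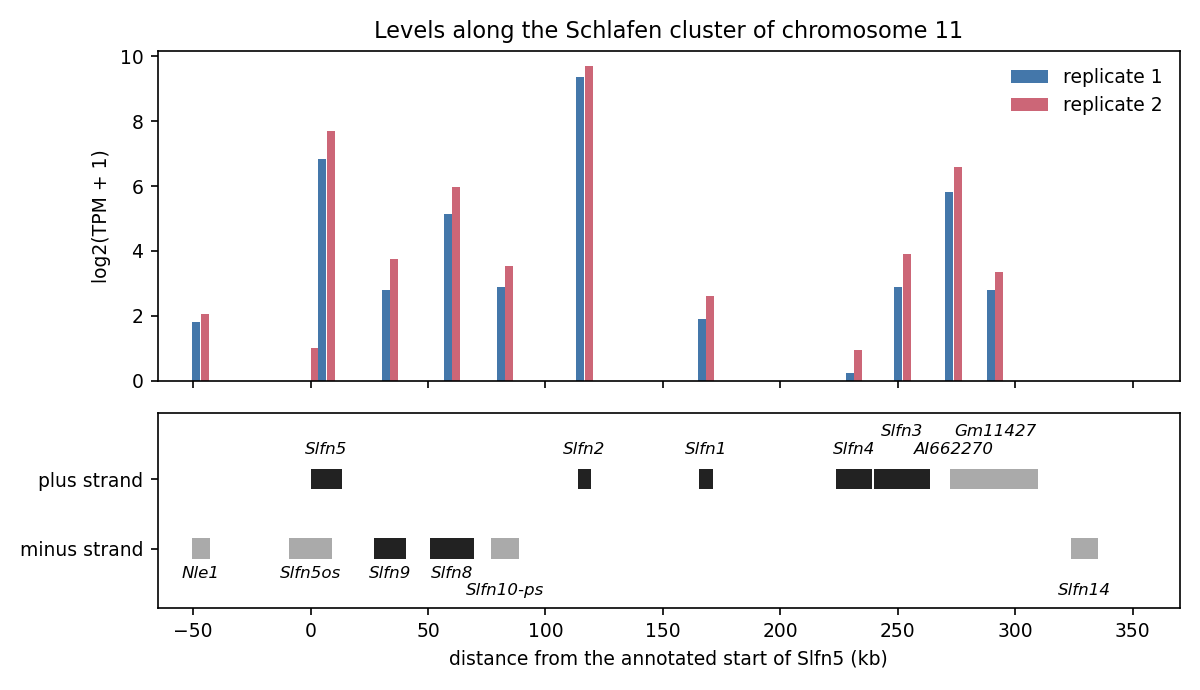
Top, log2(TPM + 1) of each gene of the Schlafen cluster in replicates 1 and 2, placed at the gene's midpoint; bottom, gene bodies by strand against the distance in kb from the annotated start of Slfn5, with the 7 members in black and other genes in grey. Slfn2 is the tallest pair of bars, with low bars for Slfn1 and Slfn4 beyond it.

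Of the other genes named Slfn, Slfn14, a ribosome-associated endonuclease known in platelet and red cell formation, had 0 counts in both libraries, and so did Slfnl1, a Schlafen-like gene on chromosome 4. A count of 0 allows up to 3 counts, or 0.0794 CPM in replicate 1 and 0.0578 CPM in replicate 2. Slfn5os, annotated antisense to Slfn5, had 0 and 9.58 counts in the gene table and 11.3 and 59.6 in the second table. Whether strand was used in counting is not given in the sources used here, so reads of Slfn5 and Slfn5os may not have been told apart.

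Pairs of near copies within the family bear on how far each level can be trusted. Slfn3 and Slfn4 were 95.3% identical over 1524 aligned coding bases, and Slfn8 and Slfn9 were 92.7% identical over 2733. Slfn2 was 76.2% identical to Slfn3 and 75.4% to Slfn4. Slfn5 had no near copy, at 57.7% to 63.6% identity with the other 6. Slfn8 and Slfn9 were about as far from the short and intermediate members, at 59.9% to 65.4%.

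**Figure D4:**
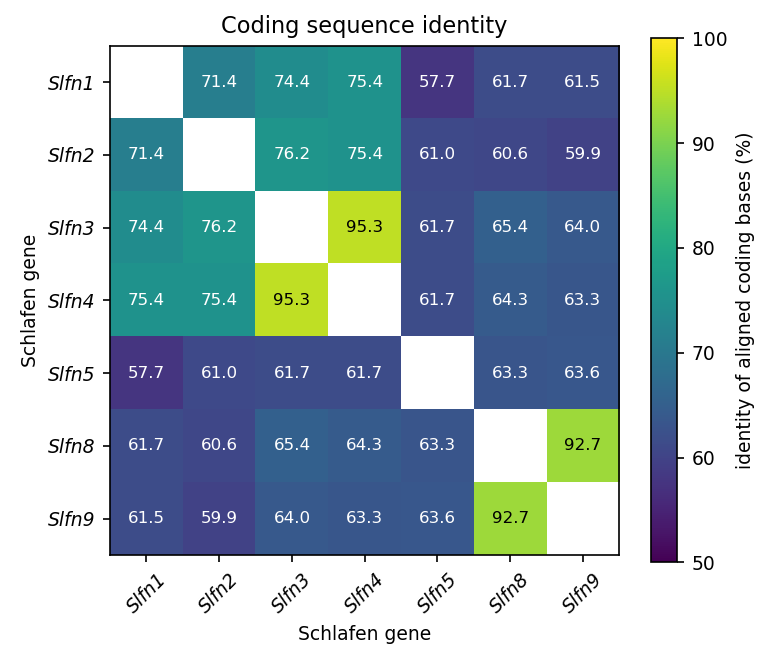
Percent identity of aligned coding bases between the leading transcripts of each pair of Schlafen genes. The pairs Slfn3 with Slfn4 (95.3%) and Slfn8 with Slfn9 (92.7%) stand out, and the row of Slfn5 stays at 57.7% to 63.6%.

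The 31-base windows of each leading transcript were searched for, on both strands, in the transcripts of other genes. The share found there was 41.7% (Slfn3), 28.0% (Slfn8), 24.4% (Slfn9), 21.2% (Slfn4), 14.2% (Slfn5), 10.8% (Slfn2) and 1.96% (Slfn1). With 75-base windows these shares fell to between 0 (Slfn1) and 9.87% (Slfn3). Slfn4 was the main partner of Slfn3 at 31 bases, in 28.9% of its windows. Slfn9 was that of Slfn8, in 19.5%, and the pseudogene Slfn10-ps shared nearly as many windows with Slfn8. For Slfn9 the main partner at 31 bases was Slfn10-ps, in 14.8%, and for Slfn5 it was the antisense gene Slfn5os, in 8.49%. No window of Slfn5 occurred in another of the 7 members. At 75 bases Slfn10-ps was the main partner of both Slfn8, in 5.36%, and Slfn9, in 4.69%. The pseudogene Gm11427 was that of Slfn3 at 75 bases, in 7.29%.

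The levels in the second deposited transcript table, made from the reads and an index, kept the order of mean TPM for all 7 genes. Slfn2 was at 536 and 723 TPM there, Slfn5 at 95.4 and 194 TPM and Slfn8 at 27.4 and 54.5 TPM. The 1 large departure was Slfn4, at 0.770 and 2.32 TPM, which was 4.53 and 2.52 times its level in the gene table. In counts it had 54 and 230 in place of 16 and 100, a ratio of 3.38 and 2.30. The other 6 members had 1.07 to 1.36 times as many counts in the second table, beside 1.10 times for the libraries as a whole. The assignment of reads between Slfn4 and its near copies may differ between the tables, which was not tested.

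Transcript use separated Slfn8 from the other long members in the first deposited transcript table, and less so in the second. In the deposited shares of each gene's TPM, Slfn5-201, which encodes the full 884 codons, took 88.5% and 87.3% of Slfn5, and the incomplete Slfn5-203 took 11.4% and 12.6%. Slfn9-201, with 910 codons, took 89.4% and 92.1% of Slfn9. Slfn8-201 took 36.9% and 40.6% of Slfn8. The transcripts of Slfn8 that encode all 910 codons together took 59.1% and 61.7%, and those that encode 407 codons took 38.9% and 36.3%.

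In the second table the 407-codon transcripts of Slfn8 took 15.6% and 10.6%, and Slfn8-206, given a mean of 20.3% in the first table, was listed at 0. The 910-codon transcripts of Slfn8 took 75.1% and 79.2% there. Those of Slfn9 took 91.6% and 91.5%, and the 884-codon transcripts of Slfn5 took 86.6% and 84.1%. The incomplete Slfn5-203 took 13.4% and 15.8%. Slfn3 was divided between Slfn3-201 (517 codons, 52.9% and 64.4%) and Slfn3-202 (640 codons, 47.2% and 35.5%), and the second table gave Slfn3-201 63.4% and 75.8%. Slfn1 and Slfn2 each have 1 annotated transcript. Slfn4 was too low for its shares to be relied on. Slfn4-201, its leading transcript by mean share, had all 16 counts of replicate 1. In replicate 2 it took 34.8%, below the 41.6% of Slfn4-202. The second table gave Slfn4-203 (209 codons) 68.5% and 61.1%, and Slfn4-201 0 and 7.47%.

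**Figure D5:**
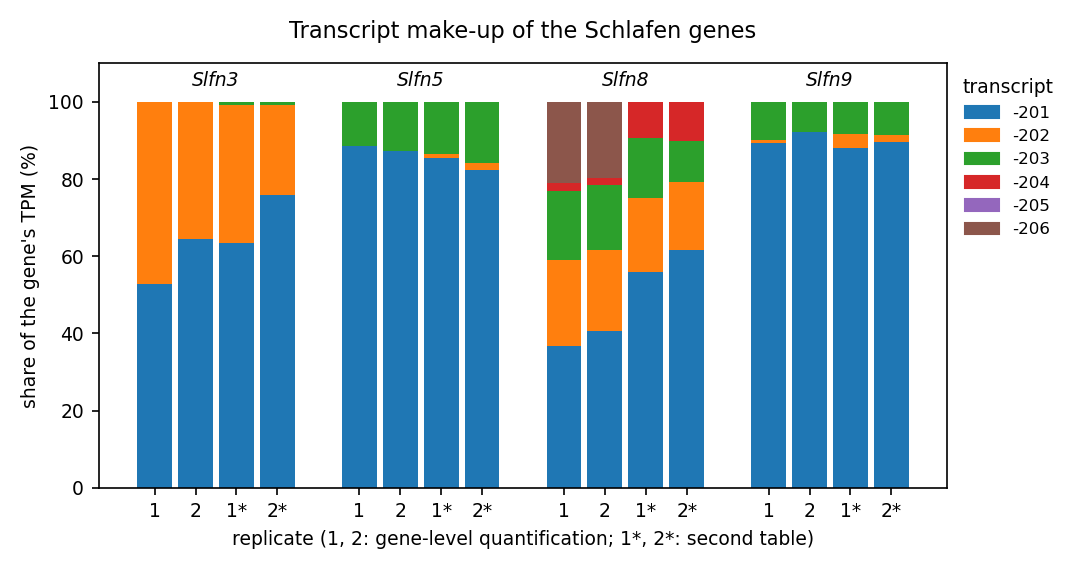
Share of each gene's TPM, in percent, taken by its annotated transcripts in replicates 1 and 2 and in each of the deposited transcript tables. Slfn5-201 and Slfn9-201 take 82.3% or more in all 4 bars. Slfn8-201, also the largest of its gene, takes 36.9% and 40.6% in the first table and 55.9% and 61.7% in the second.

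The protein-coding genes nearest to Slfn2 over the 2 libraries, by Euclidean distance in log2(TPM + 1), were Ptms, which encodes parathymosin, at 633 and 807 TPM, and the ribosomal protein genes Rpl9 at 637 and 855 TPM and Rps6 at 594 and 793 TPM. Those nearest to Slfn4 were Ptges3l at 0.16 and 0.92 TPM, Ypel1 at 0.19 and 0.94 TPM and Ly6g6d at 0.19 and 0.97 TPM. With 2 libraries of the same group, likeness in level says nothing on shared control.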

How the data were processed

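RNA-seq of polyadenylated RNA was done in 2 libraries of 1 group, from 1 µg of RNA per the labels. Per the deposited text files, values were made on mm10 with annotation M21, with tools not given in the sources used here. Per the file headers, the authors' gene table gave expected counts, which are estimated counts of reads and not normalized, TPM, a posterior mean TPM, and credibility bounds of TPM. The authors' deposited transcript table gave the percent of each gene's TPM per transcript, and a second deposited transcript table gave estimated counts and TPM, summed here per gene. All 55536 gene identifiers were found in the annotation, and 26345 entries that name no gene were left out.

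Expected counts were rounded and tested with an exact binomial test (SciPy 1.17.1) against library sizes scaled by TMM (edgeR 4.0.16), with Benjamini-Hochberg adjustment over genes with 10 or more counts. The script was tested on simulated data. With 1 library a side these p-values measure the difference between these libraries, not conditions. That is 1 difference between biological replicates and does not give their spread. Alternatives were DESeq2 1.42.0 size factors, total counts with and without ribosomal RNA genes, no filter, the second table, posterior mean TPM and other detection limits. Coding sequences and promoters were aligned locally with Biopython 1.88. The members, lists and tests were chosen with earlier results of these data known. Named were all Slfn genes, in each list the 4 genes of highest mean TPM and those below 1 TPM in both libraries, a flanking protein-coding gene and the 3 genes nearest in level; some genes that the rule names are not reported here. Ifnb1, Oasl1, AI662270, Gm11427, Unc45b, single marker genes and ACTTCCTGG were added after their values or letters were seen.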

Additional observations from a re-analysis of the deposited data

How the results depend on the processing

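With 2 libraries of 1 group, no result tests a condition, and the ratio of the libraries cannot be recomputed without either of them. No paired analysis was possible because there is 1 group. Leaving out a library gives the other library's value, which with 2 libraries always lies within their SD, so those 28 recomputed values say nothing on stability, and Slfn4 was then 0.17 or 0.92 TPM. Of the values recomputed under other settings, 74 kept their direction and side of the threshold, or where untested stayed within the SD of the libraries or, for counts, within 1.5 times, while 6 moved and 0 changed direction. Across other scalings and the second table, 28 of 28 member ratios recomputed with the exact binomial test were higher in replicate 2 and past the threshold. In the second table the mean of Slfn4 was 1.54 TPM in place of 0.545, the genes more than 2-fold higher in replicate 2 were 2045 in place of 1020, and the leading transcript took 69.6% of Slfn3, 83.9% of Slfn5 and 58.8% of Slfn8 in place of 58.6%, 87.9% and 38.7%; the cause was not tested. There 1 member, Slfn4, was more than 2-fold higher, at a log2 ratio of 1.36 in place of 2.05, with 11.9% of all tested genes past that fold. Taken over expected counts, which are not divided by length, Slfn2 made up 50.4% of the family in place of 76.7%. Depth limits Slfn4 most, with 16 counts in replicate 1.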
